A study of Mus musculus with 2 samples.

Results

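A set of 10 genes that glucocorticoids are known to induce, or that share a regulator with such genes, were followed in single spleen T cells of mice given the short-acting benzodiazepine remimazolam. They are Tsc22d3, Ddit4, Fkbp5, Sgk1, Klf9, Txnip, Pik3ip1, Dusp1, Errfi1 and the receptor gene Nr3c1, and all 10 were present among the 19837 genes of the expression table. The genes were chosen by name, with their ratios between treatments in these same data already known, so those ratios are given as a description and carry no test. Tsc22d3 and Ddit4 were lower in both remimazolam pools than in the saline pool, and in both the large CD4 and the large CD8 group. Over all T cells Txnip and Pik3ip1 were also lower in both remimazolam pools, by a smaller margin, while Fkbp5 and Nr3c1 differed little.

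The mice were female C57/BL6N animals in 3 groups of 3, given saline (labelled 0 h) or 6 mg/kg remimazolam 4 h or 8 h before the spleens were taken. No saline group stood at 4 h or 8 h, so time after injection, time of day and drug cannot be told apart. Cells from a group's 3 mice carried 1 sample tag, all tags were captured together, and each treatment is therefore a single pool with no replicate check. The sort is labelled CD45+CD3+CD5+ under the cell type but only CD45+ under the extraction, and no age is given.

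Molecule counts of all genes were available for 17299 putative cells, each with a tag call from the second library of the same capture. T cells were taken as cells with a Cd3d, Cd3e or Cd3g molecule and at most 1 molecule of the B cell and at most 1 of the myeloid marker set, which left 4983 saline, 5091 4 h and 5087 8 h cells. These held 13666028, 13926055 and 13914111 molecules, with medians of 2547, 2528 and 2530 molecules a cell, so depth was close to equal between pools. The median mitochondrial share was 9.80%, 9.76% and 9.96%. Inside the gate, summed B cell markers stood at 12.1 to 14.4 CPM (molecules of a gene or list, scaled to a common total of the gated cells), myeloid markers at 2.85 to 4.31, neutrophil markers at 0.718 to 1.08 and erythroid markers at 1.15 to 2.78. The gate itself limits genes that are part of the B cell, myeloid and neutrophil sums, so these low sums cannot serve as a check of purity. Plasma cell markers, which include the abundant Igkc and Ighm, stood at 395 to 406 CPM and natural killer markers at 103 to 112 CPM. Igkc, a B lineage gene, was found in 6.48%, 5.30% and 5.62% of gated T cells against 95.5% to 97.1% of gated B cells, and free RNA and doublets were not separated here.

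Glucocorticoids bind the receptor encoded by Nr3c1, which is held in the cytoplasm by heat shock proteins and, once bound, enters the nucleus and acts on genes with receptor-binding elements. In T cells the hormone is known for restraint of activation and for the death of thymocytes. Tsc22d3 encodes GILZ, the glucocorticoid-induced leucine zipper protein that binds NF-κB and AP-1 subunits. Ddit4 encodes REDD1, an inhibitor of the growth kinase complex mTORC1 that hypoxia and energy stress also induce. Txnip and Pik3ip1 are also known targets of FOXO factors, which are active in resting T cells and excluded from the nucleus when phosphoinositide 3-kinase signals.

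The sequences before the transcription start sites show how differently the members are built, and 6 windows are printed here for Tsc22d3, Ddit4 and members whose windows held a searched motif. They come from RefSeq on GRCm38.p6, which gave 17 windows for 9 members and none for Nr3c1. Each is the stretch up to 250 bases before a start site, 5′ to 3′ on the gene's strand, less any bases that GENCODE places in an exon of the gene. Capitals mark the receptor hexamer AGAACA or its reverse complement TGTTCT, and the forkhead motif GTAAACA or its reverse complement TGTTTAC. The motifs did not overlap each other in the printed windows.
Tsc22d3, start of the short transcript, chrX:140542669-140542845, minus strand: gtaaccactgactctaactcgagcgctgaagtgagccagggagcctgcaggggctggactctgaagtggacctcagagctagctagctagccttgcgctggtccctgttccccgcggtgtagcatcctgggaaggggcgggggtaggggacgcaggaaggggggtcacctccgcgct
Tsc22d3, distal start, chrX:140600660-140600772, minus strand: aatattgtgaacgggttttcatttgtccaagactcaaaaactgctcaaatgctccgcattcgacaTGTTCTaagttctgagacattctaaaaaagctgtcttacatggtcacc
Ddit4, chr10:59951835-59952020, minus strand: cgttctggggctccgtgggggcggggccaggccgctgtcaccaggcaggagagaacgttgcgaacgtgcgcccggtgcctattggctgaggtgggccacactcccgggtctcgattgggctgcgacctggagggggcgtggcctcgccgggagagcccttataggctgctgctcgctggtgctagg
Sgk1, chr10:21993640-21993889, plus strand: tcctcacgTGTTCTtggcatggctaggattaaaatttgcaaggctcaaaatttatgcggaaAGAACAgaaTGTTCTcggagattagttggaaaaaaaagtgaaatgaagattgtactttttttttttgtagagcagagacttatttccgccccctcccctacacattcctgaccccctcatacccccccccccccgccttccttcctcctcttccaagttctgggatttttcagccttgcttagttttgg
Txnip, chr3:96557707-96557956, plus strand: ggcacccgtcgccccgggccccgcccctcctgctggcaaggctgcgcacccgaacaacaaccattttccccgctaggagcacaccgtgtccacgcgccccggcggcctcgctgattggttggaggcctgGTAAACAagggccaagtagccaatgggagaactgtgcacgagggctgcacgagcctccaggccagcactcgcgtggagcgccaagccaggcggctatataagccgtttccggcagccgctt
Klf9, chr19:23140976-23141225, plus strand: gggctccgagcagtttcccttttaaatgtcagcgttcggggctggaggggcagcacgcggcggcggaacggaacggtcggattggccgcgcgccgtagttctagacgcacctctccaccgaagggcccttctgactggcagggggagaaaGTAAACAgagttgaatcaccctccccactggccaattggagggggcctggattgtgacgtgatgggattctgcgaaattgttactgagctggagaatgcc

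In the full windows of 250 bases, the hexamer on either strand occurred in 16.1% of all 32851 mouse windows and the forkhead motif in 3.17%. The Ddit4 window and the Tsc22d3 window at the short transcript held neither motif, and the distal Tsc22d3 window held the hexamer once. The third Tsc22d3 window, not printed, held neither. Of 6 Sgk1 windows, 3 held the hexamer, and the one shown held it at 3 places. A pair of these were AGAACA and TGTTCT set 3 bases apart, the palindrome that the receptor dimer is known to bind, which occurred in 3 of the 32851 windows (0.00913%). The other 2 windows belonged to Acnat2 and the predicted gene Gm35041. Txnip and Klf9 each held the forkhead motif, at 121 to 115 and 100 to 94 bases before the start. The windows of Pik3ip1, Fkbp5, Dusp1 and Errfi1 held neither motif. A match is a string of letters and not a measured site, and receptor elements of several of these genes are known to lie farther away than these windows reach.

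Tsc22d3 (chrX:140539528-140600659, minus strand) had 2017 molecules in saline T cells, 1395 in the 4 h pool and 1511 in the 8 h pool. This corresponded to 148, 100 and 109 CPM, so both remimazolam pools were below saline and their counting intervals did not reach it. The 4 h to saline ratio was 0.679 (95% interval 0.633 to 0.727) and the 8 h to saline ratio 0.736 (0.688 to 0.787). All such intervals here are exact and cover counting error only, not the difference between mice. Between the remimazolam pools the level was slightly higher at 8 h, with a ratio of 1.08 (1.01 to 1.17).

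Ddit4 (chr10:59949669-59951834, minus strand) had 2973, 2188 and 2046 molecules, or 218, 157 and 147 CPM. Against saline, the 4 h pool stood at 0.722 (0.683 to 0.763) and the 8 h pool at 0.676 (0.639 to 0.715). In contrast to Tsc22d3, the 8 h pool was the lower of the remimazolam pools, with an 8 h to 4 h ratio of 0.936 (0.881 to 0.995), but this small difference turned to 1.01 when every cell was reduced to 1000 molecules.

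**Figure D1:**
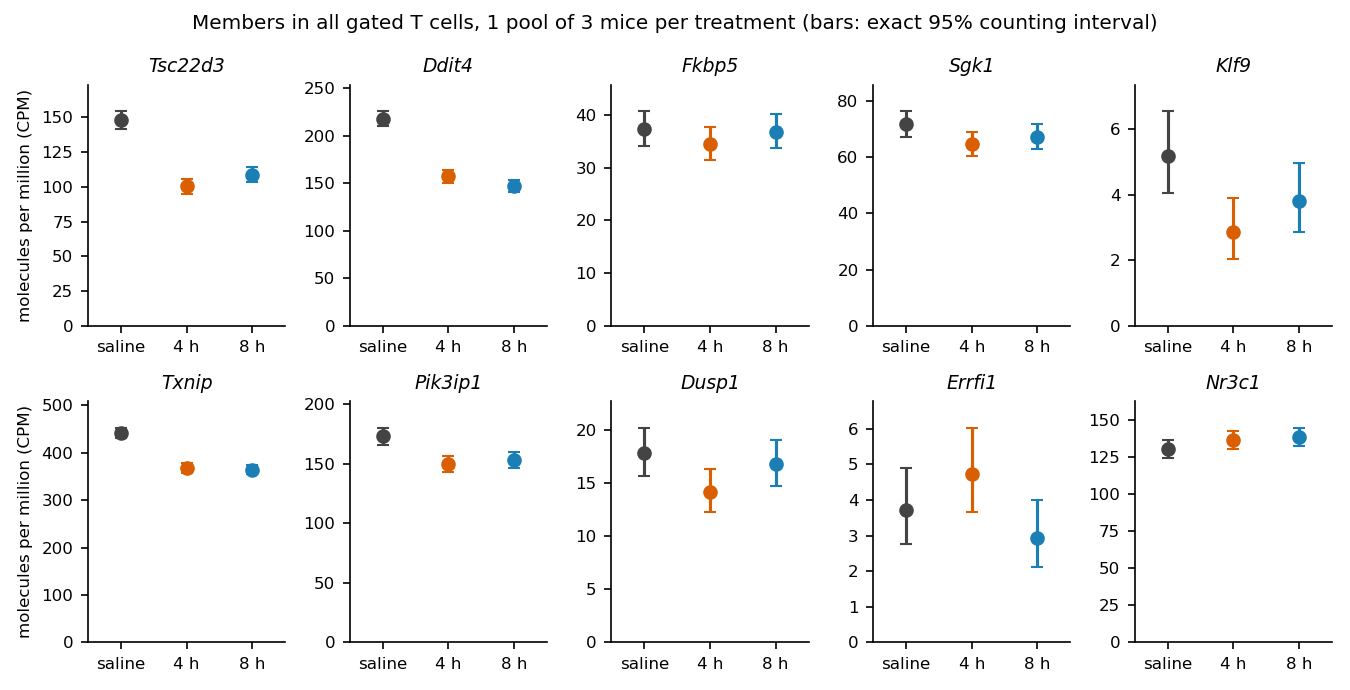
CPM (vertical axes, from 0) of the 10 genes in gated T cells of the saline, 4 h and 8 h pools (horizontal axes). Points are single pools of 3 mice and bars exact 95% counting intervals. The intervals of Tsc22d3, Ddit4, Txnip and Pik3ip1 lie below those of saline in both remimazolam pools. Those of Fkbp5, Sgk1 and Nr3c1 overlap their saline intervals.

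The direct inhibitors of glucose uptake and phosphoinositide 3-kinase lay closer to saline than Tsc22d3 and Ddit4 did. Txnip (chr3:96557957-96561883), whose product holds back glucose uptake, had 6026, 5115 and 5067 molecules, or 441, 367 and 364 CPM. Its ratios to saline were 0.833 (0.802 to 0.865) and 0.826 (0.795 to 0.857). Pik3ip1 (chr11:3330401-3342971), a transmembrane inhibitor of phosphoinositide 3-kinase in T cells, had 173, 150 and 153 CPM, with ratios of 0.865 (0.815 to 0.918) and 0.885 (0.834 to 0.939). For both genes the remimazolam pools were below saline and close to each other.

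Fkbp5, Sgk1 and the receptor gene lay nearer to their saline level. Fkbp5 (chr17:28399094-28517527), a co-chaperone that lowers the receptor's affinity for its hormone, had 37.3, 34.5 and 36.9 CPM. Its ratios to saline were 0.924 (0.814 to 1.05) and 0.988 (0.872 to 1.12), so a ratio as low as that of Tsc22d3 lay outside its intervals at both times. Sgk1 (chr10:21882184-21999903), a kinase activated through phosphoinositide 3-kinase and the gene whose window held the full palindrome, had 71.6, 64.6 and 67.1 CPM, with ratios of 0.902 (0.823 to 0.989) and 0.938 (0.857 to 1.03). Nr3c1, the receptor itself, had 130, 137 and 139 CPM and ratios of 1.05 (0.981 to 1.12) and 1.06 (0.996 to 1.13).

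Klf9, Dusp1 and Errfi1 had few molecules and wide intervals. Klf9 (chr19:23141226-23168134), a zinc finger transcription factor, had 71, 40 and 53 molecules, with ratios of 0.553 (0.366 to 0.826) and 0.733 (0.504 to 1.06). Dusp1 (chr17:26505590-26562128), a phosphatase that switches off MAP kinases, had 243, 197 and 233 molecules, with ratios of 0.796 (0.656 to 0.964) and 0.942 (0.783 to 1.13). Errfi1 (chr4:150853919-150868892), an inhibitor of epidermal growth factor receptor signalling, had 51, 66 and 41 molecules. Its 4 h to saline ratio was 1.27 (0.868 to 1.87) and its 8 h to 4 h ratio 0.622 (0.410 to 0.932), and it was the only member with its highest level in the 4 h pool.

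Counted against a fixed size, a ratio of 0.8 or lower or its inverse or higher with at least 100 molecules over the pools compared, 4 members were lower at 4 h than in saline: Tsc22d3, Ddit4, Klf9 and Dusp1. Of all 9485 genes with that many molecules, 171 were lower to this extent (1.8%). Errfi1 was the only member higher, against 4.13% of all genes. At 8 h against saline, 3 members were lower (Tsc22d3, Ddit4 and Klf9), against 2.25% of 9465 genes, and none was higher, against 3.14%, while Errfi1 had too few molecules to count. At 8 h against 4 h, Errfi1 alone was lower, against 3.28% of 9503 genes, and no member was higher, against 1.8%, with Klf9 below the minimum. Dusp1 lay just inside the size at 4 h with 0.796, and Txnip just outside it with 0.833 and 0.826. The members were selected on these contrasts, so the shares are given for scale only.

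Among well-counted genes such ratios were rarer. With at least 1000 molecules over both pools, 8 of 4531 genes were lower at 4 h (0.177%) and 9 of 4503 at 8 h (0.2%), and both lists held Tsc22d3 and Ddit4. Genes higher by the same size numbered 20 at 4 h (0.441%) and 3 at 8 h (0.0666%). This minimum was set after the values were seen, and the members were chosen with their ratios known, so their ranks are a description only. Under the smaller minimum used above, Tsc22d3 ranked 27th and Ddit4 66th from the lowest of 9485 genes at 4 h. At 8 h Tsc22d3 ranked 74th and Ddit4 26th of 9465. With at least 1000 molecules, Tsc22d3 had the lowest ratio of the 8 lower genes at 4 h and Ddit4 the next. Among the others were Dnah8, Egr3, Cxcr4, Mtss1 and Noc3l, with ratios of 0.725 to 0.788. At 8 h Ddit4 at 0.676 followed the predicted gene Gm47283 at 0.654, and Cxcr4 at 0.688 and Tsc22d3 came next. Cxcr4, a chemokine receptor that glucocorticoids are known to induce in T cells, had 73.5, 56.7 and 50.5 CPM.

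**Figure D2:**
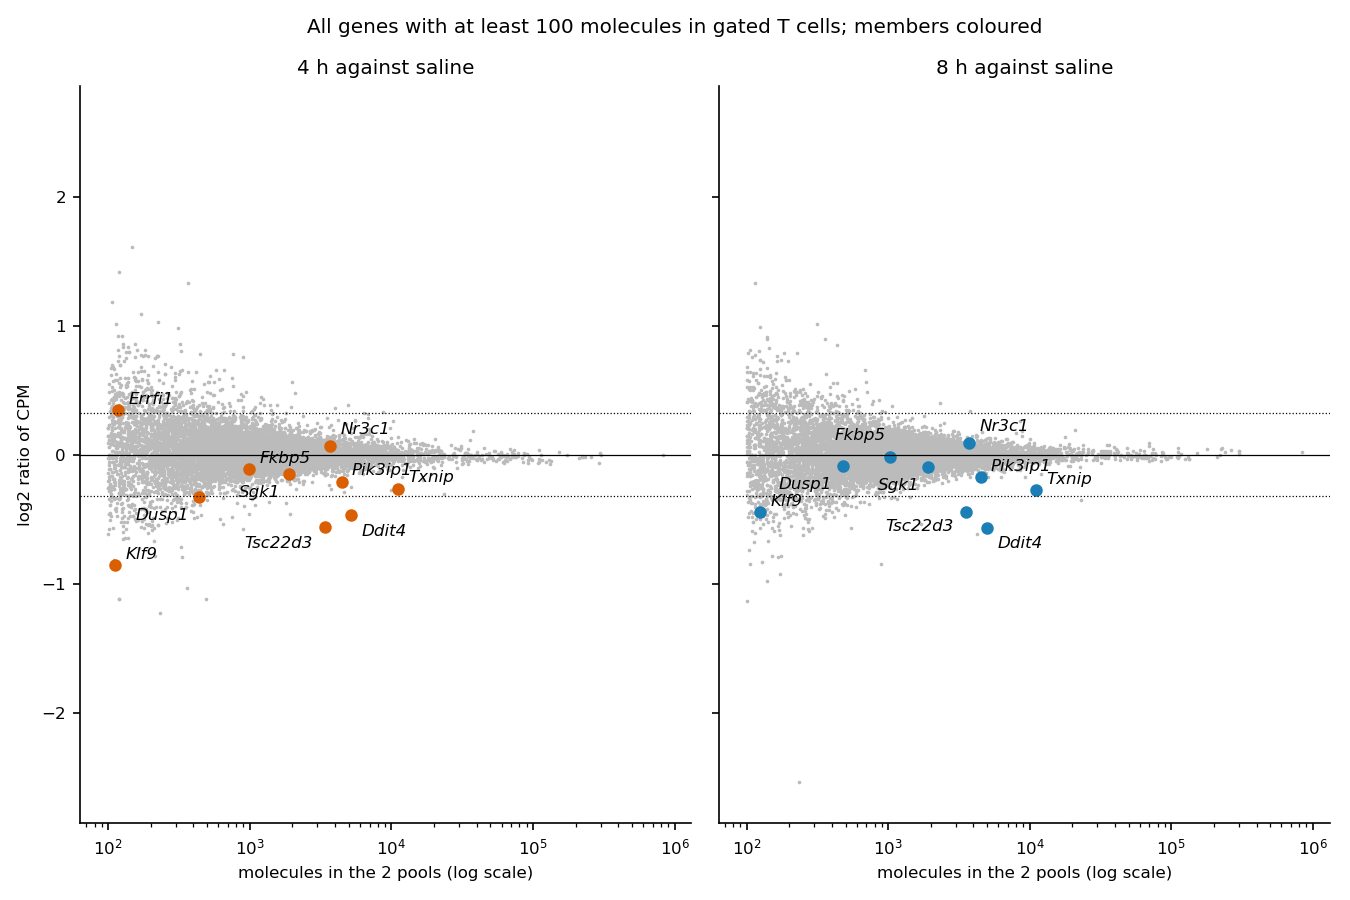
Log2 ratio of CPM to the saline pool (vertical axis) against the molecules in both pools (horizontal axis, log scale) for every gene with at least 100 molecules, with members in colour and dotted lines at a ratio of 0.8 and its inverse. The spread of the grey genes narrows to the right, and Tsc22d3 and Ddit4 lie below nearly all genes of like molecule number at both times.

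Lower sums came with fewer positive cells. With each cell reduced to 1000 molecules, which left out 17, 22 and 31 cells, Tsc22d3 was found in 13.9% of saline T cells (95% interval 13.0 to 14.9), 9.45% (8.66 to 10.3) at 4 h and 10.2% (9.42 to 11.1) at 8 h. At full depth the shares were 29.5%, 21.4% and 22.5%, with 1.37, 1.28 and 1.32 molecules per positive cell. Ddit4 was found in 18.8%, 13.0% and 13.7% of reduced cells, and at full depth in 36.7%, 28.9% and 27.5%. T cells with 3 or more Ddit4 molecules made up 5.30% in saline, 3.04% at 4 h and 2.75% at 8 h. The highest count in any cell was 17, in the saline pool, which was 0.572% of that pool's Ddit4 molecules, so no single cell carried the level. Txnip was found in 35.5%, 30.0% and 30.2% of reduced cells. These genes are broadly expressed, so no cell type here can serve as a background that lacks them.

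T cells were then divided by lineage gene molecules. The CD4 gate without S100a4 held 1704, 1627 and 1793 cells in the saline, 4 h and 8 h pools, and the CD8 gate without Ccl5 held 1686, 1759 and 1633. Both had the marks of naive cells, with the lymph node homing receptor gene Ccr7 in 48.3% and 48.8% of cells and the memory gene Cd44 in 11.2% and 5.32%. The CD8 gate with Ccl5 held 243, 261 and 269 cells. The Foxp3 gate, of regulatory T cells, held 202, 226 and 232 cells, with Il2ra in 53.5% and Ikzf2 in 63.0%. Natural killer T-type cells, gated on Klrb1c or Zbtb16, numbered 57, 97 and 67, and γδ cells, gated on Trdc, 93, 124 and 88. CD4 cells with S100a4, a memory-type gene, numbered only 27, 56 and 45. Cells without a clear lineage gene made up a group of 971, 941 and 960. A Trdc molecule was also seen in 3.04% of the CD4 and 3.49% of the CD8 naive-type gate, and how far free RNA fills the γδ gate was not tested.

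In saline, Tsc22d3 was highest in the naive-type CD8 and CD4 gates and lowest in CD4 cells with S100a4 and natural killer T-type cells. Its level was 168 CPM in CD8 cells without Ccl5, 154 in CD4 cells without S100a4, 136 in cells without a clear lineage gene, 126 in γδ cells, 118 in the Foxp3 gate, 93.8 in CD8 cells with Ccl5, 52.9 in CD4 cells with S100a4 and 43.1 in natural killer T-type cells. No neighbours in this order were separated by the interval of their ratio, although the ends were far apart, and the last 2 levels rest on 6 and 8 molecules. Ddit4 had another order, with 256 CPM in CD4 cells with S100a4, 251 in those without, 239 in cells without a clear lineage gene, 236 in the Foxp3 gate, 216 in natural killer T-type cells, 188 in CD8 cells without Ccl5, 187 in γδ cells and 140 in CD8 cells with Ccl5. Here too no neighbours were separated.

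**Figure D3:**
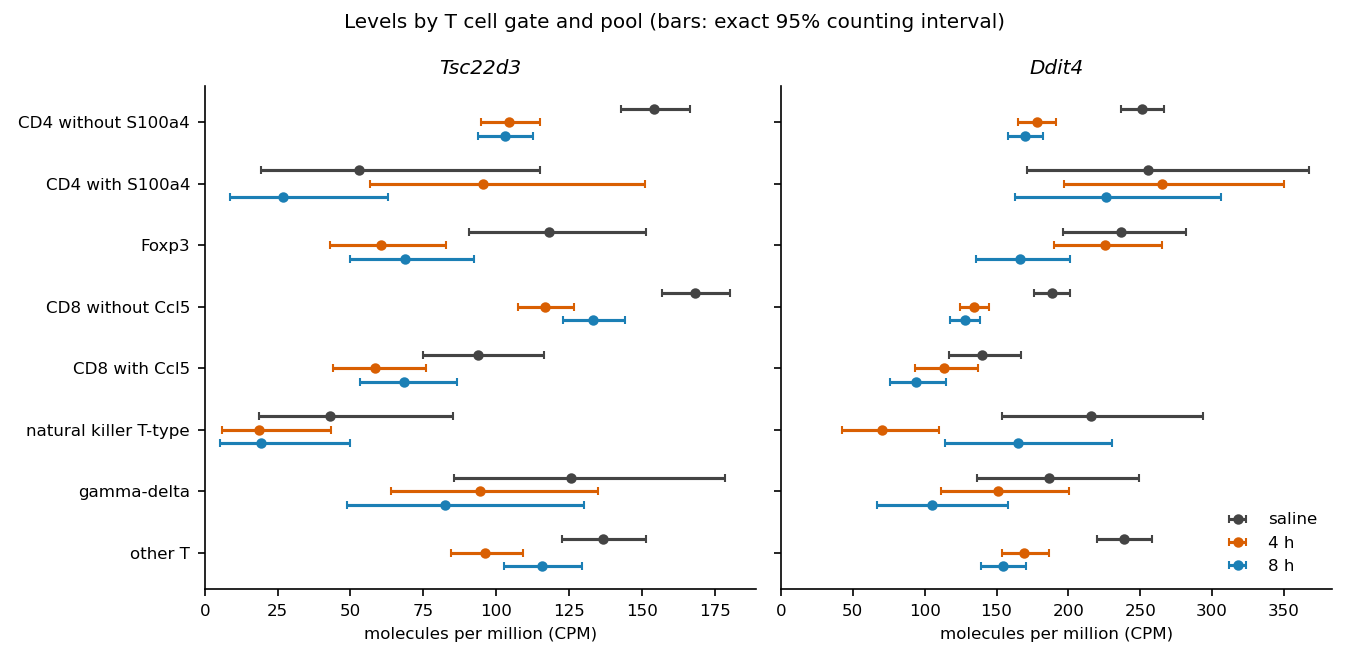
CPM (horizontal axes, from 0) of Tsc22d3 and Ddit4 in 8 T cell gates (vertical axis) and 3 pools (colours), with exact 95% counting intervals. Saline lies to the right of both remimazolam pools in the large CD4 and CD8 gates, and the intervals of the small gates are wider.

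The lower Tsc22d3 level was seen in the naive-type CD4 and CD8 gates, in CD8 cells with Ccl5 and in the Foxp3 gate. In CD4 cells without S100a4 it was 154, 105 and 103 CPM, with ratios to saline of 0.678 (0.599 to 0.766) and 0.667 (0.591 to 0.752). In CD8 cells without Ccl5 it was 168, 117 and 133 CPM, with ratios of 0.694 (0.623 to 0.774) and 0.791 (0.711 to 0.880). In these CD8 cells the 8 h pool was above the 4 h pool at 1.14 (1.02 to 1.28), and in the CD4 cells it was not, at 0.985 (0.861 to 1.13). In the Foxp3 gate the level was 118, 60.6 and 68.7 CPM, with ratios of 0.513 (0.334 to 0.777) and 0.581 (0.385 to 0.872). CD8 cells with Ccl5 had 93.8, 58.3 and 68.5 CPM, with ratios of 0.622 (0.435 to 0.883) and 0.730 (0.523 to 1.02). Of the 7 gates other than the cells without a clear lineage gene, 6 lay below saline at 4 h and 7 at 8 h, with the interval below 1 in 4 and 3 of them. The exception at 4 h was CD4 cells with S100a4, at 6, 18 and 5 molecules.

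Ddit4 was lower by nearly the same ratio in the large gates, and by value it was close to saline in the Foxp3 gate at 4 h. In CD4 cells without S100a4 it had 251, 178 and 170 CPM, with ratios of 0.708 (0.644 to 0.778) and 0.676 (0.615 to 0.742). CD8 cells without Ccl5 had 188, 134 and 128 CPM, with ratios of 0.714 (0.645 to 0.790) and 0.679 (0.611 to 0.754). The Foxp3 gate had 236 CPM in saline and 225 at 4 h, a ratio of 0.953 (0.745 to 1.22), and then 166 at 8 h, a ratio of 0.703 (0.537 to 0.920). The 4 h interval of the Foxp3 gate overlaps those of the large gates, and the difference between gates was not tested. Natural killer T-type cells had 40, 19 and 34 molecules, or 216, 70.5 and 165 CPM, so they were lowest at 4 h with a ratio of 0.327 (0.179 to 0.577).

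**Figure D4:**
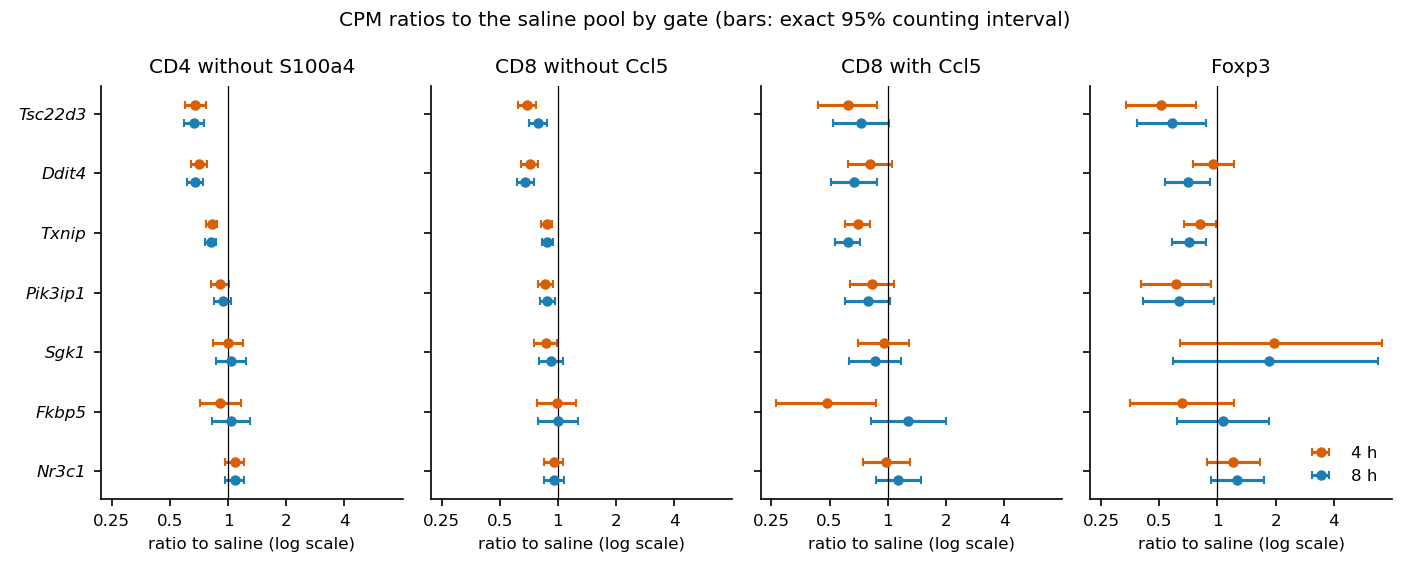
Ratios of CPM to the saline pool (horizontal axes, log scale) for 7 genes (vertical axis) in the 4 gates named above each panel, at 4 h and 8 h, with exact 95% counting intervals. Tsc22d3, Ddit4 and Txnip lie left of 1 in all 4 gates, and Fkbp5, Sgk1 and Nr3c1 lie around 1 in the naive-type CD4 and CD8 gates.

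Txnip differed between the CD8 gates in its ratio to saline. CD8 cells with Ccl5 had 495, 346 and 307 CPM, with ratios of 0.699 (0.604 to 0.807) and 0.620 (0.535 to 0.719), whereas CD8 cells without Ccl5 had 414, 361 and 364 CPM, with ratios of 0.873 (0.819 to 0.931) and 0.880 (0.824 to 0.939). The intervals of these gates do not overlap at either time, but they cover counting error only, and the difference between gates was not tested. In γδ cells the ratios were 0.664 (0.499 to 0.882) and 0.636 (0.458 to 0.876). Pik3ip1 had ratios of 0.611 (0.400 to 0.928) and 0.629 (0.411 to 0.955) in the Foxp3 gate and 0.904 (0.812 to 1.01) and 0.939 (0.847 to 1.04) in CD4 cells without S100a4. In saline Pik3ip1 was highest in CD8 cells without Ccl5 (201 CPM) and lowest in CD4 cells with S100a4 (1 molecule).

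Sgk1 and Dusp1 differed more between gates than between pools. Sgk1 in saline was 98.4 CPM in CD8 cells with Ccl5 and 88.3 in those without, 58.5 in CD4 cells without S100a4 and 9.53 in the Foxp3 gate. Its ratio to saline in CD4 cells without S100a4 was 1.00 (0.836 to 1.20) at 4 h, and in CD8 cells without Ccl5 it was 0.863 (0.749 to 0.994). Dusp1 was highest in the Foxp3 gate, at 66.7 CPM in saline against 22.5 in CD4 cells without S100a4 and 10.7 in CD8 cells without Ccl5. Fkbp5 had 32.1, 31.6 and 32.1 CPM in CD8 cells without Ccl5. In CD8 cells with Ccl5 it had 36, 19 and 53 molecules, or 40.7, 19.8 and 51.9 CPM, so it was lowest at 4 h and the 8 h to 4 h ratio was 2.62 (1.53 to 4.69). Klf9 had at most 28 molecules in any gate and pool, and Errfi1 at most 23. Nr3c1 spanned 115 to 150 CPM over the saline gates, as a ratio of highest to lowest the narrowest range of the members, and had 27, 63 and 48 molecules in natural killer T-type cells, with a 4 h ratio of 1.60 (1.01 to 2.62).

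Cells with immediate early molecules had less Tsc22d3 in each pool. T cells with at least 2 molecules of Nr4a1, Egr1, Egr2 and Egr3 together, immediate early genes of T cell receptor signalling, made up 7.73%, 6.04% and 7.38% of the saline, 4 h and 8 h cells. At 1000 molecules a cell, Tsc22d3 in saline had 85.9 CPM in these cells and 172 in cells without such molecules, a ratio of 0.50 (0.342 to 0.709). At 4 h it was 0.350 (0.179 to 0.616) and at 8 h 0.672 (0.445 to 0.977). Txnip had ratios of 0.556, 0.610 and 0.657 and Pik3ip1 of 0.709, 0.568 and 0.721, with every interval below 1. Ddit4 did not share this, with 0.924 (0.728 to 1.16), 0.920 (0.660 to 1.253) and 1.10 (0.834 to 1.43). Cells were marked at full depth, and those with 1 such molecule were left out of these within-pool ratios. The share of cells with at least 2 was lowest in the 4 h pool. Without those cells, but with cells of 1 such molecule kept, the Tsc22d3 ratio to saline was 0.676 at 4 h and 0.732 at 8 h. A part of these cells in the lower level was not tested.

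**Figure D5:**
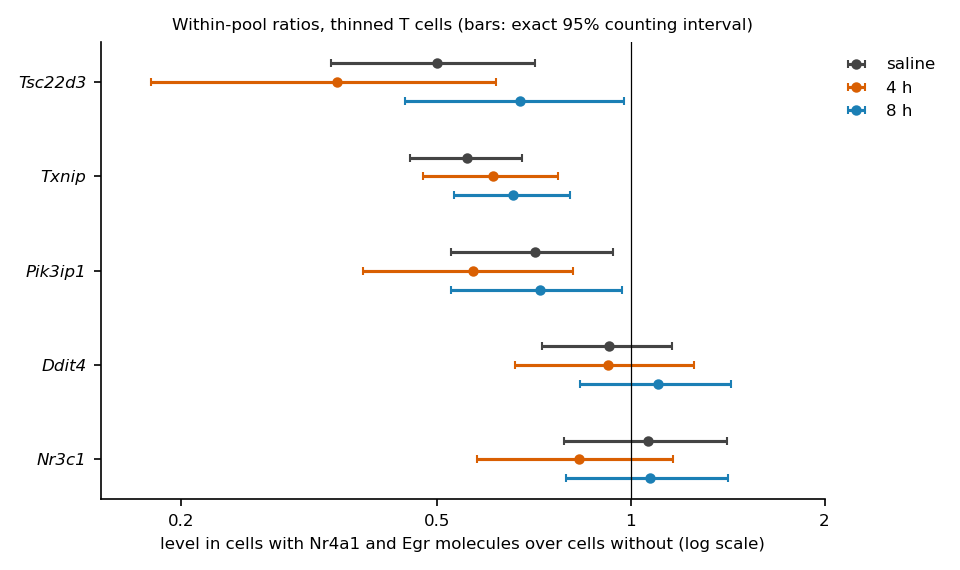
Level in T cells with Nr4a1 and Egr molecules divided by that in cells without (horizontal axis, log scale) for 5 genes (vertical axis) within each pool (colours), with exact 95% counting intervals. Tsc22d3, Txnip and Pik3ip1 lie below 1 in all 3 pools, and the intervals of Ddit4 and Nr3c1 include 1.

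Likeness was taken over the 21 combinations of 3 pools and the 7 gates with at least 50 cells in every pool. These gates include the cells without a clear lineage gene and leave out CD4 cells with S100a4. Among 7608 genes with at least 500 molecules, those most like Tsc22d3 in log2(CPM + 1) were Foxp1 (Pearson r 0.94), S1pr1 (0.93), Nsd3 (0.92), Ccr7 (0.91) and Bicdl1 (0.91). S1pr1 and Ccr7 encode receptors for leaving and entering lymphoid organs, and Foxp1 a factor of the naive state. Of the members, Pik3ip1 was 21st on this list (0.86), Ddit4 ranked 1120th (0.45) and Nr3c1 had a negative value (-0.71). The genes most like Ddit4 were Kcnn4 (0.79), Inpp5f (0.79), Stat5b (0.79), Lipa (0.79) and Timp2 (0.79). The points share pools and a capture, and gates differ in depth, so these values describe the likeness only.

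Other genes of the same pathways were counted from lists chosen with earlier results of these data known. Of 20 further glucocorticoid-responsive genes, 15 had enough molecules. At 4 h Cxcr4 was lower by the set size, and at 8 h Cxcr4 (0.688), the RNA-binding protein gene Zfp36l2 (0.784) and the cytokine signalling inhibitor Socs1 (0.786) were. The list's median log2 ratio was -0.034 at 4 h and -0.00080 at 8 h, against 0.013 and -0.0020 for all genes. Zfp36l2 had 942, 762 and 739 CPM, and the cytokine receptor gene Il7r, the most abundant of the list, had ratios of 0.976 and 1.01. Per1, a direct target of the receptor and a clock gene, had 217, 221 and 224 molecules, with ratios of 0.999 (0.825 to 1.21) and 1.01 (0.837 to 1.23). Per1 is named here because its values had been seen. No hormone was measured, and a role of glucocorticoids was not tested. Of 17 genes for receptor chaperones and coregulators, 16 were counted and none was past the size in either contrast with saline, with Hsp90ab1 at 0.981 and 1.04 and Hspa8 at 1.01 and 1.04.

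Of 19 FOXO factors and targets, Txnip and Pik3ip1 among them, all were counted. None was past the size at 4 h, and at 8 h only Bcl6 was lower (0.763). The median log2 ratios were -0.036 and -0.026. Of 12 counted mTORC1 pathway genes of 15, none was past the size, with Rps6kb1 at 0.992 and 1.00 and Eif4ebp2 at 0.973 and 0.973. Of 10 integrated stress response genes, whose factor Atf4 is a known inducer of Ddit4, 5 were counted and none was past it, with Atf4 at 0.974 and 1.03 and Herpud1 at 1.07 and 1.00.

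Handling and immediate early genes were counted because tissue dissociation induces them. Of 15, 11 were counted, with Fosb higher at 4 h (46 and 76 molecules, 1.62) and Jun at 8 h (1.30). The most abundant, Junb and Jund, had 0.925 and 1.02, and 1.09 and 1.14. Egr1 (0.832 and 0.906) and Hsph1 (0.866 and 0.861) were lower without reaching the size. The list's median log2 ratio was -0.068 at 4 h and 0.060 at 8 h, against 0.013 and -0.0020 for all genes. Nr4a1 and Egr1 of this list also served above to mark cells with immediate early molecules. The 3 other TSC22 family genes stayed inside the size, with Tsc22d4 at 1.09 and 0.984 and Tsc22d2 at 1.01 and 0.963. Among 9 relatives of Txnip and Dusp1, 7 were counted and Arrdc2 was lower at 4 h (75 and 52 molecules, 0.680), with Dusp2 at 0.925 and 0.886 and Dusp10 at 0.903 and 0.926. Of 12 clock genes, 11 were counted and Bhlhe40 was higher, with 51, 90 and 92 molecules and ratios of 1.73 and 1.77, while Nr1d2 had 0.984 and 1.02 and Cry1 1.06 and 0.969.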

How the data were processed

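Spleen T cells of 3 tagged pools were profiled in a single BD Rhapsody capture with a transcriptome and a sample-tag library. GRCm38 with GENCODE M19 and version 1.9.1 of the BD Rhapsody WTA Multiplex pipeline were used by the authors, per the file headers. The sources used here name no aligner. Deposited values are whole-number molecule counts per cell and gene after the pipeline's error correction of molecular identifiers, beside raw counts before it. The authors' deposited calls assign a cell to a tag, to the multiplets or to neither. Per the deposited description, tag 8 marks saline, tag 10 the 4 h and tag 9 the 8 h group.

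Cells under a single tag in use numbered 16174 of 17299. The 1063 multiplets, 60 undetermined cells and 2 cells of another tag were left out, which removes doublets between pools. Doublets within a pool and free RNA were not corrected. Cells with at least 200 genes and under 25% mitochondrial molecules were kept (16123), of which 15161 entered the T cell gate. Cells with mixed or no lineage genes form the group without a clear lineage gene.

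Molecules were summed per gate and pool and divided by that sum's total (CPM). Ratios have exact conditional-binomial, shares exact Clopper-Pearson and levels exact Poisson 95% intervals, which cover counting error only. A floor was set at 3 molecules, which in all T cells correspond to 0.220, 0.215 and 0.216 CPM. With 1 pool per treatment no test was made. Both contrasts with saline share its pool. The ratio script was tested on simulated data. The members and lists were chosen with earlier results of these data known. All 10 members are described. From each list, genes with a ratio of 0.8 or lower, or its inverse or higher, at 4 h or 8 h (up to 6) and the 2 most abundant are named, and Per1 and the genes with at least 1000 molecules were added after their values were seen.

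Alternatives were a stricter cell filter (500 genes, 15%), TMM factors from edgeR 4.0.16 (R 4.3.3), raw molecules, equal weight per cell, a fixed mix of gates, no T cell gate, leaving out stimulated cells, thinning, stricter gates and other minima and folds. Coordinates come from GENCODE M21 on GRCm38 by symbol. Python 3.11.15 was used with numpy 2.4.6, pandas 2.3.3, scipy 1.17.1 and matplotlib 3.10.9.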

Additional observations from a re-analysis of the deposited data

Results flagged for a closer look

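In 3 cases the counting interval of a member's ratio lay below 1 in one T cell gate and above 1 in another under the same contrast. None of these differences was tested, since each gate has a single pool per treatment. With 10 members, 7 gates and 3 contrasts compared, some such pairs can arise by counting error alone.

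Dusp1 at 4 h against saline had a ratio of 0.665 (0.475 to 0.925) in CD4 cells without S100a4, from 98 and 61 molecules. In natural killer T-type cells it had 7.56 (1.10 to 326), from 1 and 11 molecules, and the 8 h pool again held 12.

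Ddit4 at 8 h against 4 h had a ratio of 0.738 (0.568 to 0.956) in the Foxp3 gate, from 145 and 104 molecules. In natural killer T-type cells it had 2.34 (1.30 to 4.35), from 19 and 34 molecules.

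Tsc22d3 at 8 h against 4 h had a ratio of 0.282 (0.0819 to 0.788) in CD4 cells with S100a4, from 18 and 5 molecules. In CD8 cells without Ccl5 it had 1.14 (1.02 to 1.28), from 581 and 613 molecules.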

How the results depend on the processing

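No paired analysis was possible because each treatment is 1 pool. Over 8 alternatives, the ratios in all T cells stayed inside the interval of the reported value in 237 of 240 cases. Tsc22d3 ranged from 0.654 to 0.685 at 4 h and from 0.689 to 0.746 at 8 h, and Ddit4 from 0.665 to 0.726 and from 0.654 to 0.677. The exceptions all came with thinning to 1000 molecules, where the Ddit4 ratio at 4 h was 0.665, its 8 h to 4 h ratio was 1.01, on the other side of 1, and the Pik3ip1 ratio at 4 h was 0.927. Thinning draws fewer molecules, so its own counting error is larger. Within gates, only ratios to saline with at least 100 molecules over the pools compared were recomputed, under the stricter cell filter or stricter gates. Ratios of 8 h to 4 h within gates were not recomputed. All 112 recomputed ratios within gates and 58 of 60 ratios of shares stayed inside their intervals, and the others were the Ddit4 share at 4 h.

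Counts of genes past the fold depend on the minimum and the fold by construction. Lower and higher genes numbered 864 and 1298 at 4 h, 954 and 1156 at 8 h, and 1151 and 921 for 8 h against 4 h with a minimum of 10 molecules. With no minimum and a prior of 0.5 molecules they numbered 3243 and 3770, 3340 and 3632, and 3575 and 3299. At a fold of 1.5 they numbered 18 and 77, 20 and 41, and 41 and 18. With at least 1000 molecules, a minimum chosen after seeing the data, they numbered 8 and 20, 9 and 3, and 13 and 3. TMM factors kept all 6 counts within 1.5 times. Members with under 100 molecules in a gate have wide intervals.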

Other observations

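B cells that passed the sort also had less Tsc22d3 in the remimazolam pools. In 111 saline, 141 4 h and 136 8 h cells with at least 3 molecules of Cd79a, Cd79b and Ms4a1 and no Cd3 molecule, Tsc22d3 had 59, 43 and 33 molecules, or 207, 106 and 94.5 CPM. The ratios to saline were 0.512 (0.337 to 0.771) and 0.457 (0.289 to 0.712). Ddit4 in these cells had 32, 40 and 18 molecules, with ratios of 0.878 (0.538 to 1.44) and 0.460 (0.243 to 0.844). Txnip had ratios of 1.04 (0.780 to 1.38) and 0.895 (0.659 to 1.22), and Nr3c1 of 1.06 and 0.894.

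Detection of Tsc22d3 was set against that of the other members in the same cells, as a description. At 1000 molecules a cell, Ddit4 was found in 19.1% of saline T cells with Tsc22d3 and 18.7% of those without. The shares were 10.0% and 13.3% at 4 h and 11.4% and 13.9% at 8 h. Txnip was found in 43.3% of saline T cells with Tsc22d3 and 34.3% of those without. The shares of Txnip were 33.6% and 29.6% at 4 h and 30.9% and 30.1% at 8 h.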
